A study of Mus musculus with 6 samples.

Results

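Promoter peaks within 1 kb upstream of a gene start were compared between livers that overexpress Dyrk1b and control livers by ATAC-seq, an assay that cuts accessible DNA with a transposase and tags the fragments for sequencing. They are the peaks that the deposited annotation classes as promoter at up to 1 kb. There are 3088 of them among 22412 peaks, or 13.8%, and 3080 of them passed the filter on low counts, while 8 did not. The 6 liver libraries are 3 named Ad-Dyrk1b, with the genotype given as overexpression of Dyrk1b, and 3 named Ad-EGFP, with the genotype given as control. Dyrk1b is a kinase of the DYRK family, EGFP is a green fluorescent protein, and Ad- is the usual prefix for adenoviral delivery, which both groups carry. Strain, sex, age, vector dose, the vector's promoter and the time of sampling are not stated by the labels. Nothing ties the replicates of a group to different animals, and the p-values reflect only how far these libraries spread, part of which may be technical. The title of the series names glucose homeostasis and Wbp2, a coactivator of nuclear receptors.

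A promoter is the stretch of DNA just upstream of a transcription start where RNA polymerase and general factors assemble. At active genes it is kept free of nucleosomes, which makes it one of the most open parts of the genome, and in liver the promoters of housekeeping genes are open in nearly all cell types while those of liver-specific genes are open mainly in hepatocytes. In bulk tissue, fewer cells with an open promoter and less opening per cell cannot be told apart.

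Peaks of this class are centred at the start or upstream of it. Peak centres lay 120.5 bases upstream of the start of the annotated gene at the median, with quartiles at 240 and 50 bases and a range of 0 to 999 bases, because peaks centred downstream of a start carry other classes. Of the 3088 peaks, 2467 (79.9%) reached across the start itself. The median width was 560 bases, against 443 bases for all other peaks, and widths ran between 203 and 1970 bases. A gene symbol was given for 2830 peaks and none for 258. These 2830 peaks carry 2793 symbols, of which 37 have 2 promoter peaks each. The start of a second gene on the opposite strand lay within 1000 bases of the start for 92 peaks (2.98%), counting the genes that the table names.

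The reference sequences of 4 of these promoters are shown, for the called peak that is lower at a histone gene, for 2 further peaks among the lowest p in that direction, and for the higher peak at Jak2. Each is the RefSeq window of 250 bases before to 50 bases after the gene start on GRCm38.p6, read 5′ to 3′ on the strand of the gene. Capitals mark the 6 letters GGGCGG of the SP/KLF motif, the 5 letters CCAAT of the NFY motif or the 6 letters TATAAA of the TATA motif, on either strand. The windows stand at chr13:23562336-23562635 on the minus strand for H3c6, at chr1:163403620-163403919 on the minus strand for Gorab, at chr8:121578757-121579056 on the minus strand for Fbxo31 and at chr19:29251553-29251852 on the plus strand for Jak2.
H3c6: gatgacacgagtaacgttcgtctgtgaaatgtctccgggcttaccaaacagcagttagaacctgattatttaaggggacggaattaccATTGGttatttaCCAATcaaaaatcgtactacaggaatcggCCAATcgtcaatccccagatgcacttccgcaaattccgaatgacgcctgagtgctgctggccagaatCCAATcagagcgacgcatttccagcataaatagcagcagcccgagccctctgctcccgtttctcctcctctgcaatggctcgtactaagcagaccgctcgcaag
Gorab: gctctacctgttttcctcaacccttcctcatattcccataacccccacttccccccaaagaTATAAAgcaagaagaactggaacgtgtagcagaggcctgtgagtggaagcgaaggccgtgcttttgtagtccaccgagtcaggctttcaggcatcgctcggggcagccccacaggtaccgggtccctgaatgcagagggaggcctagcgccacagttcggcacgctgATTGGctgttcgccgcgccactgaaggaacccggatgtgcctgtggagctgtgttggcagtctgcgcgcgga
Fbxo31: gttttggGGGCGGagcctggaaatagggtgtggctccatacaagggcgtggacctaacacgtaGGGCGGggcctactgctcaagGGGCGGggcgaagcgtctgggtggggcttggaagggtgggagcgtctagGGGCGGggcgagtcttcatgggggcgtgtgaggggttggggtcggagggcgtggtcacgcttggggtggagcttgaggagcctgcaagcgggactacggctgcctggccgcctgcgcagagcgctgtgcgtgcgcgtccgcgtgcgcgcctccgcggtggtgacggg
Jak2: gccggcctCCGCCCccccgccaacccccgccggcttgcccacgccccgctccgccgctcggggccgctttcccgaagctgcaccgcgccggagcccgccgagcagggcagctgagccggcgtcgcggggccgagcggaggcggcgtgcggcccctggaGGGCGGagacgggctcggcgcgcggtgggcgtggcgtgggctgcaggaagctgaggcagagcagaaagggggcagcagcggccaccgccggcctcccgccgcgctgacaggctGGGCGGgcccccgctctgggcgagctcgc

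The H3c6 window held 4 matches to CCAAT, first bases 162, 150, 121 and 54 upstream of the start, 0 matches to GGGCGG, and a GC content of 49.7%. Gorab held 1 CCAAT, 22 bases upstream, and 1 TATAAA, 189 bases upstream, at a GC content of 58.7%. In Fbxo31, 4 matches to GGGCGG lay 243, 187, 166 and 117 bases upstream, at 69.7% GC. Jak2 had 81% GC and 3 matches to GGGCGG. The 4 windows thus differ widely in base composition and in which motif they hold.

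A RefSeq window was matched by symbol to 1904 of the 3080 tested peaks (61.8%), those whose gene had 1 RefSeq promoter. The comparison set of all RefSeq windows was not limited in this way. Since part of the peaks had no match, accessibility changes were not tested against sequence features. As a description of the matched windows, the median GC content was 63.3%, against 52.7% over all 32851 RefSeq windows, and the median number of CpG dinucleotides was 23, against 7. Each motif was searched on both strands, matches of different motifs may overlap in part, and shares count windows with at least 1 match. GGGCGG (SP/KLF) was present in 73.6% of matched windows and 35.7% of all windows. The ETS motif CCGGAAGT stood in 8.51%, against 3.89% of all windows, the NRF1 motif CGCATGCG in 3.57%, against 1.87%, the YY1 motif AAGATGGCG in 3.57%, against 1.4%, and the cyclic AMP response element TGACGTCA in 3.15%, against 1.79%. For CCAAT the shares were 38.3% and 37.4%, and for the E-box CACGTG 9.35% and 7.15%. TATAAA was the rarer one in matched windows, at 6.67%, against 13.6% of all windows, as was the cell cycle element TTTGAA, at 9.93%, against 17.9%. The liver factor motifs were rare in both sets. GTTAATNAT (HNF1) had 0.473%, against 0.801%, and TTGCGCAA (CEBP) had 0.473%, against 0.183%. The matched windows thus held more GC and more CpG at the median than all RefSeq windows.

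The libraries held 768418 to 1267934 reads in peaks with Ad-Dyrk1b and 762633 to 855787 with Ad-EGFP. No 2 libraries agreed within sampling noise, since chi-square divided by its degrees of freedom was 2.19 to 4.4 between them. A promoter peak had a median of 34, 43.5 and 59 reads in Ad-Dyrk1b libraries 1, 2 and 3, and of 41, 40.5 and 37 reads in Ad-EGFP libraries 1, 2 and 3. Of the hepatocyte markers, 8 of 13 genes had a peak of any class and 0 had a promoter peak within 1 kb, and Cps1, Cyp2e1, Serpina1b, Tat and Ttr had no peak in the table. The 10 hepatocyte marker peaks summed to 439, 484 and 484 CPM with Ad-Dyrk1b and 689, 420 and 598 CPM with Ad-EGFP, and the groups overlapped, with 9 of the 10 log2 changes negative. CPM is the read count scaled to a fixed number of reads in peaks with TMM factors. None of the marker genes of endothelial cells, macrophages, stellate cells, cholangiocytes, lymphocytes or neutrophils had a promoter peak either. Peaks of other classes were found for 4 of 11 endothelial, 2 of 10 macrophage, 2 of 10 stellate, 3 of 12 lymphocyte, 1 of 6 neutrophil and 0 of 6 cholangiocyte markers, and 0 of them were called. Stellate markers Col1a2, Dcn, Des, Hand2, Lhx2, Ngfr, Pdgfrb and Reln had none. The 6 endothelial peaks, 2 of them with negative log2 changes, summed to 235 to 255 CPM with Ad-Dyrk1b and 184 to 238 CPM with Ad-EGFP. The 2 stellate peaks, 0 of them negative, summed to 48.5 to 59.1 CPM with Ad-Dyrk1b and 31.7 to 48.6 CPM with Ad-EGFP. The 1 neutrophil peak, also not negative, had 23 to 37.5 CPM with Ad-Dyrk1b and 14.8 to 34 CPM with Ad-EGFP. Of 3 macrophage and 3 lymphocyte peaks, 1 each was negative. The sums of the groups overlapped for each of these cell types, and the part of cell composition in the results at promoters was not tested.

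The mean share of reads on promoter peaks was slightly smaller in livers that overexpress Dyrk1b, with overlap between the groups. Of the reads in peaks, promoter peaks held 15.5%, 16.9% and 16.3% in Ad-Dyrk1b libraries 1, 2 and 3, against 17.4%, 16.9% and 17.4% in Ad-EGFP libraries 1, 2 and 3. Ad-Dyrk1b library 2 and Ad-EGFP library 2 had nearly the same share. The difference was -1.02 percentage points, with p = 0.2 by an exact two-sided permutation test over libraries, and it was -0.657 points without Ad-Dyrk1b library 1 (exact permutation p = 0.4). With 3 against 3 libraries the smallest p such a test can give is 0.1. A single peak of another class took 5.3%, 3.42% and 2.94% of the reads with Ad-Dyrk1b and 1.79%, 4.36% and 3.93% with Ad-EGFP. Leaving it out gave shares of 16.4%, 17.5% and 16.8% with Ad-Dyrk1b and 17.7%, 17.6% and 18.2% with Ad-EGFP, a difference of -0.962 points with no overlap and an exact permutation p of 0.1.

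Relative to all other peaks, promoter peaks were lower with Ad-Dyrk1b in every library before correction for the trend with peak strength. The measure is the median log2 deviation of promoter peaks from their mean over libraries, less the same median at all other peaks. It was -0.10, -0.0078 and -0.094 in Ad-Dyrk1b libraries 1, 2 and 3, against 0.043, 0.030 and 0.083 in Ad-EGFP libraries 1, 2 and 3. The groups did not overlap, and Ad-Dyrk1b library 2 lay nearest to the controls. Their difference was -0.12 (means -0.067 ± 0.051 and 0.052 ± 0.028, SD, n = 3 each), with an exact permutation p of 0.1, the smallest possible here. With the trend corrected, the values were -0.054, 0.015 and -0.058 with Ad-Dyrk1b and -0.0086, 0.017 and 0.041 with Ad-EGFP. The groups then overlapped, since Ad-Dyrk1b library 2 lay above Ad-EGFP library 1, and the difference of -0.049 had an exact permutation p of 0.2.

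**Figure D1:**
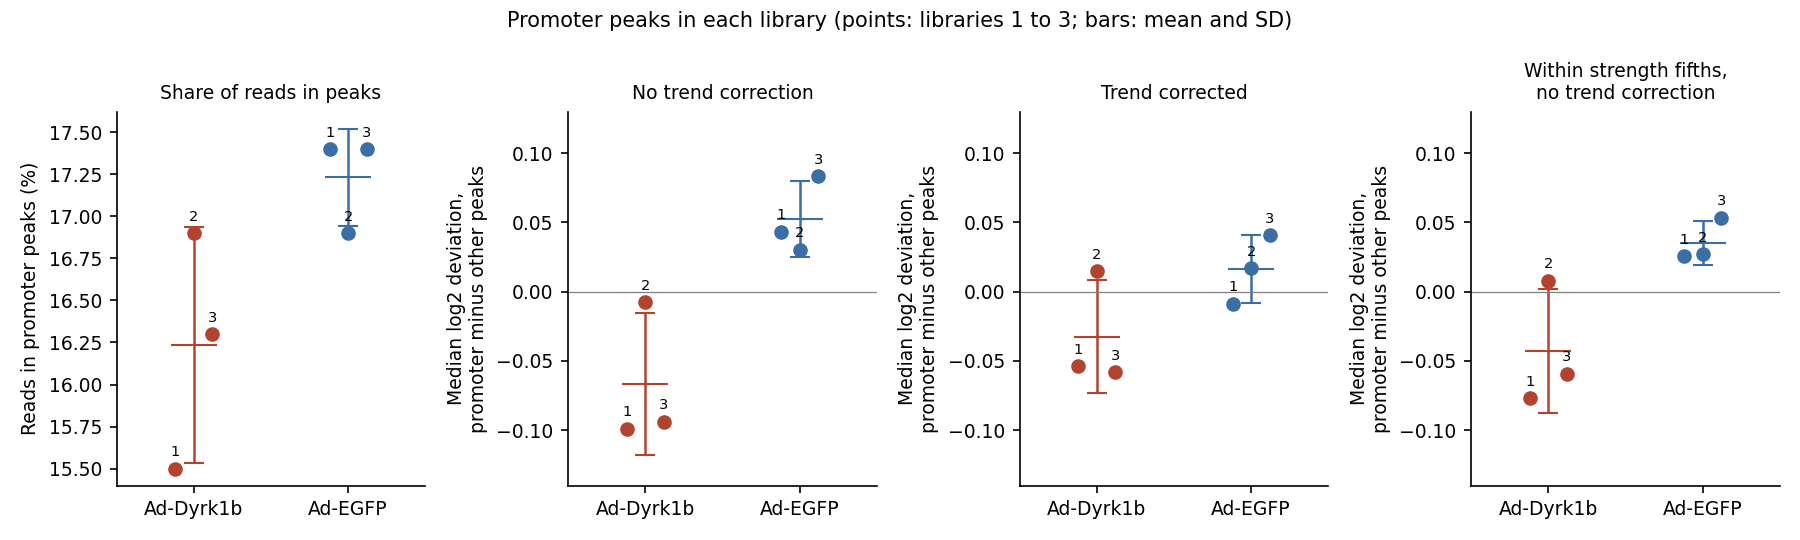
Each panel plots 1 value per library for Ad-Dyrk1b and Ad-EGFP, with the library number beside the point and the mean and SD as bars; the first panel shows the percentage of reads in peaks on promoter peaks, on an axis that does not start at 0, and the others show the median log2 deviation of promoter peaks less that of other peaks. Without trend correction all 3 Ad-Dyrk1b libraries lie below the Ad-EGFP libraries, and with it library 2 of Ad-Dyrk1b lies among them.

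Compared with peaks of the same strength, promoter peaks were lower with Ad-Dyrk1b both with and without the correction. When the difference was taken within each of 5 equal classes of mean strength and averaged, the Ad-Dyrk1b libraries had -0.077, 0.0079 and -0.059 and the Ad-EGFP libraries 0.025, 0.027 and 0.053 without trend correction. That is a difference of -0.078 with no overlap (exact permutation p = 0.1), or of -0.048 without Ad-Dyrk1b library 1 (exact permutation p = 0.2). After trend correction, Ad-Dyrk1b libraries had -0.072, 0.012 and -0.057 and Ad-EGFP libraries 0.018, 0.022 and 0.048, a difference of -0.069 with no overlap (exact permutation p = 0.1). Ad-Dyrk1b library 2 again lay close to the controls on both scales.

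Of the classes most like it, only 5′ UTR peaks, which also sit at gene starts, kept their distance from promoter peaks without overlap both with and without trend correction. Relative to the 2863 peaks of that class, promoter peaks stood at -0.028, -0.0096 and -0.029 with Ad-Dyrk1b and at 0.014, 0.019 and 0.031 with Ad-EGFP, a difference of -0.043. With trend correction this difference was -0.053, and the groups did not overlap on either scale (exact permutation p = 0.1 each). Relative to the 320 outer promoter peaks, at 1 to 2 kb upstream, it was -0.13 without overlap (exact permutation p = 0.1) and, after correction, -0.046 with overlap (exact permutation p = 0.3). Relative to the 5614 first intron peaks it was -0.099 without overlap (exact permutation p = 0.1) and, after correction, -0.027 with overlap (exact permutation p = 0.5).

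Few promoter peaks differed one by one. With TMM scaling and no trend correction, edgeR's quasi-likelihood test called 0 promoter peaks higher, where 0.00907% of all tested peaks were called, and 1 lower, where 0.0227% were called, at a Benjamini-Hochberg adjusted p under 0.05 over all 22051 tested peaks. After trend correction it also called 0 higher (0% of all tested peaks) and 1 lower (0.0227%), but at another gene. DESeq2 called 0 higher (0% of all) and 2 lower (0.0862% of all). It gave no adjusted p for 1713 of the 3080 promoter peaks and for 16245 of all 22051 tested peaks. Such peaks could not be called, but the shares of all peaks count them. At its unadjusted p under 0.05, 84 (2.73%, against 5.49% of all) were higher and 267 (8.67%, against 6.83%) lower. In the authors' deposited table, 0 promoter peaks had an FDR under 0.05, and the lowest FDR among them was 0.272.

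At an unadjusted p under 0.05, 106 promoter peaks (3.44%) were higher, against 6.44% of all tested peaks, and 296 (9.61%) were lower, against 7.72% of all. The groups did not overlap for 173 higher promoter peaks (5.62%, against 9.53% of all) and for 406 lower ones (13.2%, against 9.97%). A negative log2 change was found for 1902 promoter peaks (61.8%), against 49.5% of all peaks. Promoter peaks were thus under-represented on the higher side and over-represented on the lower side before correction. Without Ad-Dyrk1b library 3 the lower peaks at an unadjusted p under 0.05 numbered 197. After trend correction, 119 were higher (3.86%, against 5.14% of all) and 209 lower (6.79%, against 7.33%) at an unadjusted p under 0.05. Groups without overlap then numbered 181 higher (5.88%, against 8.1%) and 295 lower (9.58%, against 8.95%), and 1663 log2 changes were negative (54%, against 47.9%). The lower share of promoter peaks was then close to the background, and the higher share stayed under it. Between the fits, 78 of the higher peaks were shared, which is 73.6% of the 106 and 65.5% of the 119, and 171 of the lower ones, which is 57.8% of the 296 and 81.8% of the 209.

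Among the promoter peaks at an unadjusted p under 0.05, 73.6% were lower with TMM scaling and 63.7% after trend correction. Over all tested peaks at that level, 1702 were lower and 1419 higher with TMM scaling, and 1616 lower and 1133 higher after correction. For the other scalings only the promoter share is given. It was 65% when libraries were scaled by reads in peaks alone and 19.1% when scaled by the library totals behind the deposited RPKM values. That last scaling moved the median log2 change of all tested peaks up by 0.16. The authors' deposited ratios rest on RPKM values. At the authors' p under 0.05, 126 of 3088 promoter peaks were higher and 36 lower, against 1760 and 341 of all 22412 peaks. The median log2 ratio in that table was 0.061 for promoter peaks and 0.19 for other peaks.

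The median log2 change of the 3080 promoter peaks was -0.11, with quartiles at -0.34 and 0.14, while the median was 0.0047 over all tested peaks and 0.027 over the other peaks. It was -0.049 for 5′ UTR peaks, 0.0092 for first intron peaks and 0.061 for outer promoter peaks. With the trend corrected, the promoter median was -0.031, against 0.020 over all tested peaks, 0.030 for 5′ UTR peaks, 0.0086 for first intron peaks and 0.062 for outer promoter peaks. The promoter class had the lowest median of these classes on both scales, although under the RPKM-total scaling its own median was 0.062.

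The change at promoter peaks varied with the strength of the peak. Divided into 5 equal classes of mean CPM, promoter peaks had median log2 changes of 0.071, -0.03, -0.1, -0.15 and -0.18 going up in strength, with median levels of 24, 36.3, 48.6, 63.7 and 92.7 CPM. The share of negative log2 changes went up with strength as well, at 45.3%, 52.8%, 63.6%, 68.7% and 78.4%. Weak promoter peaks were thus balanced between the directions, and strong ones leaned to lower in livers that overexpress Dyrk1b. The difference between the strongest and the weakest class was -0.19, -0.11 and -0.17 in the Ad-Dyrk1b libraries, against 0.13, 0.041 and 0.17 in the Ad-EGFP libraries, a difference of -0.26 with no overlap and an exact permutation p of 0.1. After correction the medians were -0.092, -0.042, -0.027, -0.022 and -0.018, so that the weakest class was now the lowest. The trend itself then had the opposite sign, at 0.070 (exact permutation p = 0.1, no overlap).

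The medians of peaks outside the class also went down with strength. Over classes of strength set on all tested peaks, promoter peaks had median log2 changes of 0.18, 0.0047, -0.039, -0.098 and -0.17, and the other peaks of 0.35, 0.16, 0.029, -0.069 and -0.14. Promoter peaks were below the other peaks in each of the 5 classes. After trend correction promoter peaks had -0.044, -0.11, -0.046, -0.022 and -0.022, and the others 0.087, 0.058, 0.027, 0.0083 and 0.0047, again with promoter peaks below in each class. The gap was wider in the weakest 2 classes, with 276 and 390 promoter peaks, than in the strongest class, with 1100.

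**Figure D2:**
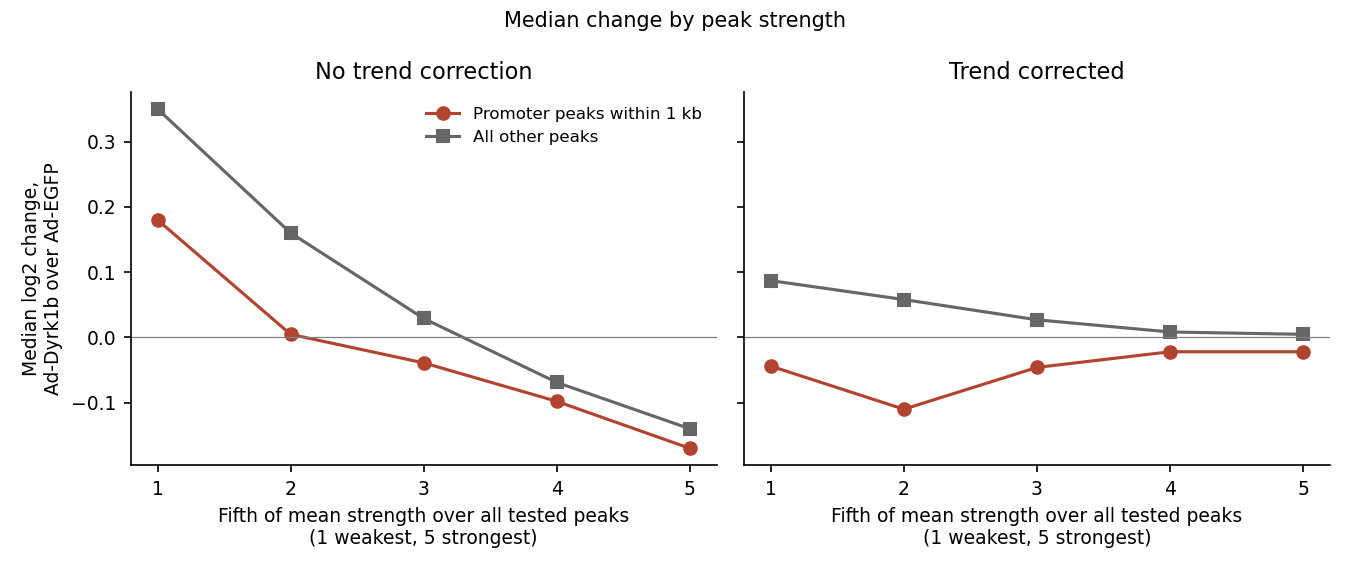
Median log2 change of Ad-Dyrk1b over Ad-EGFP is plotted against the class of mean strength over all tested peaks, for promoter peaks within 1 kb and for all other peaks, without (left) and with (right) trend correction. Both curves slope down before correction, with promoter peaks at 0.18 in the weakest and -0.17 in the strongest class, and promoter peaks lie below the other peaks in each of the 5 classes in both panels.

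Medians varied modestly with position upstream of the start. Peaks centred within 50 bases of the start had a median log2 change of -0.077 (764 peaks), those at 50 to 100 bases -0.092 (581), those at 100 to 250 bases -0.12 (1005), those at 250 to 500 bases -0.16 (442) and those beyond 500 bases -0.11 (288). Median levels in these classes were 49.2, 45.7, 51.2, 51.7 and 36.6 CPM. After trend correction the medians were 0.014, -0.038, -0.039, -0.072 and -0.085, so the 2 farthest classes had the lowest medians, although the 46 peaks at 900 bases or more had a positive one. Peaks that did not reach the start had -0.09 and, corrected, -0.11 (616 peaks), while those that reached it had -0.11 and -0.02 (2464 peaks). The narrowest peaks, under 400 bases, had -0.0035 and -0.099, and those over 800 bases -0.17 and -0.017, at median levels of 26.8 and 88 CPM, so width and strength moved together. At 91 tested promoter peaks with an opposite start within 1000 bases the median was -0.18, against -0.1 at the other 2989, and corrected it was -0.065 and -0.031.

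At the limit of the class itself, the 46 promoter peaks centred at 900 bases or more had a median log2 change of 0.1 and, corrected, 0.15. The 45 outer promoter peaks centred up to 1100 bases upstream had 0.019 and 0.064. The median levels were 38.6 and 34.6 CPM. Of the 37 genes with 2 promoter peaks, 22 had the same sign at both, 14 of them negative, and 21 had the same sign after correction.

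**Figure D3:**
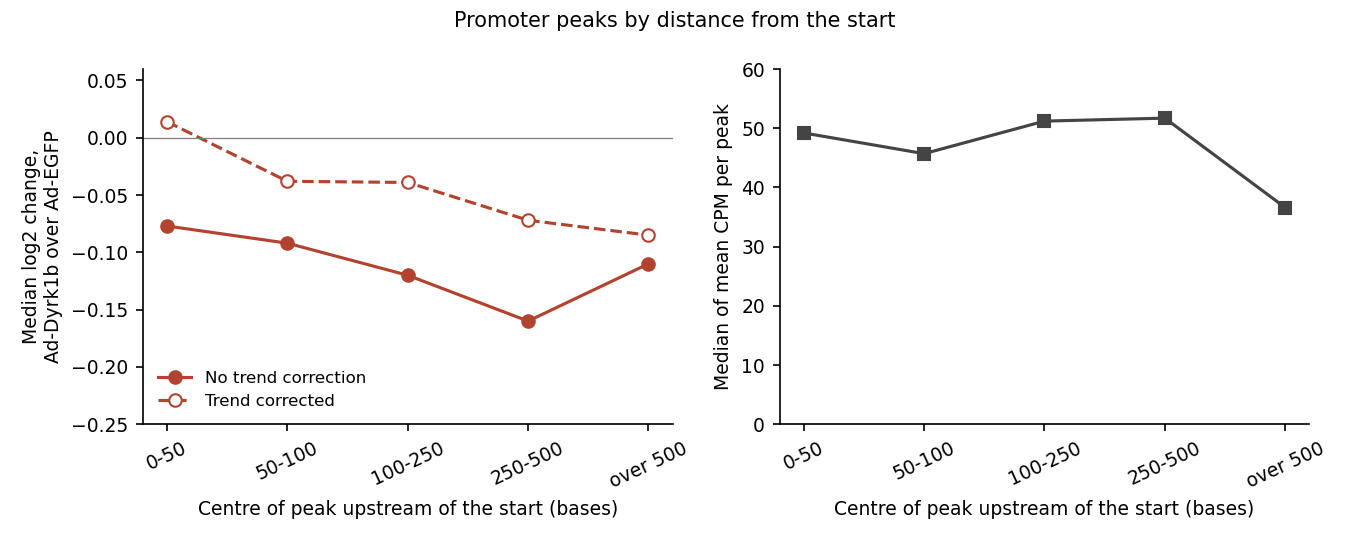
The left panel plots the median log2 change of promoter peaks by the distance of the peak centre upstream of the start in bases, without (filled) and with (open) trend correction, and the right panel the median of the mean CPM per peak. The uncorrected median is lowest at 250 to 500 bases (-0.16), and the corrected one is -0.085 for the class beyond 500 bases, which includes the 46 peaks at 900 bases or more with a median of 0.15.

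The promoter peak of H3c6, a replication-dependent histone H3 gene of the major histone cluster, was the 1 called without trend correction. It lies on chromosome 13 at 23746633 to 23747619, its centre 583 bases upstream of the start, which it does not reach. Coordinates of peaks are as deposited and belong to a build that differs from GRCm38, so peaks cannot be placed on the sequences above. The level was 31.8, 33.1 and 28.4 CPM in Ad-Dyrk1b libraries 1, 2 and 3, against 76.2, 51 and 105 CPM in Ad-EGFP libraries 1, 2 and 3. The Ad-Dyrk1b libraries were close together, the Ad-EGFP libraries spread widely, and the groups did not overlap. H3c6 fell, with a log2 change of -1.31 ± 0.27 (SE), and edgeR's adjusted p was 0.0288. DESeq2 gave an adjusted p of 0.0198, and trend correction a log2 change of -1.23 with an adjusted p of 0.0536. The call held without Ad-EGFP library 2 (adjusted p = 0.0406) and was lost without any other single library, at adjusted p up to 0.212 and log2 changes of -1.36 to -1.04. Histone genes have near-identical copies, and whether the reads of this upstream peak were assigned to the right copy was not tested.

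Rpf1, whose yeast counterpart is a nucleolar factor of large ribosomal subunit assembly, carries the 1 peak called after trend correction (chromosome 3, 146227491 to 146227998, centre 560 bases upstream, not reaching the start). It had 9.29, 1.1 and 12.3 CPM with Ad-Dyrk1b and 46.9, 26.7 and 25.5 CPM with Ad-EGFP, from 7, 1 and 16 reads and 40, 22 and 19 reads. Every Ad-Dyrk1b library lay below every Ad-EGFP library. A count of 1 is the lowest in the table, occurs at 14 promoter peaks, and may stand for an empty peak. The trend-corrected log2 change was -2.38 ± 0.50 (SE, edgeR adjusted p = 0.039), so Rpf1 fell on that scale. Without the correction it was -2.06 ± 0.50 with an adjusted p of 0.0966. The trend-corrected call held without Ad-Dyrk1b library 3 (adjusted p = 0.0266) and was lost without any other single library. Without Ad-Dyrk1b library 2, which holds the count of 1, the log2 change was -1.79 (adjusted p = 0.221), and it was -1.82 without Ad-EGFP library 1 (adjusted p = 0.286).

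Other promoter peaks with the lowest p on the lower side did not pass the threshold in either edgeR fit. These, and those with the lowest p on the higher side, were named only where the groups did not overlap in the fit that ranked them. Their separation on that scale was thus set by the rule. Fbxo31 encodes an F-box protein, the substrate receptor of a ubiquitin ligase, and its peak (chromosome 8, 122305649 to 122306265, centre 412 bases upstream) was the other one that DESeq2 called lower, with an adjusted p of 0.0493. It had 54.4, 58.4 and 58.4 CPM with Ad-Dyrk1b and 114, 98.4 and 105 CPM with Ad-EGFP. Both groups were tight and far apart, and the log2 change was -0.88 ± 0.22 (edgeR adjusted p = 0.105, and 0.164 corrected). Gorab, a Golgi protein that binds the small GTPase RAB6, had a peak on chromosome 1 at 163231187 to 163231674 that spans the start. Its level was 22.6, 18.7 and 24.6 CPM with Ad-Dyrk1b and 75, 32.8 and 59.2 CPM with Ad-EGFP. Ad-EGFP library 2 was the lowest control, yet still above all Ad-Dyrk1b libraries (log2 change -1.33 ± 0.32, edgeR adjusted p = 0.0966, and 0.0698 corrected).

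At Dctn2, the dynamitin subunit of the dynein activator dynactin, levels were 22.6, 33.1 and 32.2 CPM with Ad-Dyrk1b and 58.6, 68 and 64.5 CPM with Ad-EGFP. Hcfc1, an X-linked chromatin cofactor, had 14.6, 27.6 and 15.4 CPM with Ad-Dyrk1b and 56.3, 38.9 and 47.1 CPM with Ad-EGFP. The groups were apart at both, with log2 changes of -1.1 ± 0.28 and -1.31 ± 0.34. Tmbim6, an endoplasmic reticulum membrane protein known as Bax inhibitor, had 17.3, 27.6 and 29.9 CPM with Ad-Dyrk1b and 72.7, 30.4 and 73.9 CPM with Ad-EGFP. Mgst1, a microsomal glutathione transferase, had 45.1, 29.8 and 29.9 CPM with Ad-Dyrk1b and 87.9, 74.1 and 47.1 CPM with Ad-EGFP. At these last genes 1 control library came close to the Ad-Dyrk1b libraries, library 2 for Tmbim6 and library 3 for Mgst1. After trend correction the groups overlapped at Mgst1. Uncorrected, edgeR's adjusted p over Dctn2, Hcfc1, Tmbim6 and Mgst1 lay between 0.105 and 0.112.

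On the higher side, Jak2 had the strongest of the higher peaks described here and came nearest to the threshold after trend correction. Jak2 is the kinase that signals for growth hormone and many cytokine receptors, and its peak lies on chromosome 19 at 29228519 to 29229475, across the start. It had 92.9, 148 and 117 CPM with Ad-Dyrk1b and 23.4, 72.9 and 86 CPM with Ad-EGFP. Ad-EGFP library 1 was far below the other controls, and the highest control lay just under the lowest Ad-Dyrk1b library. The log2 change was 0.99 ± 0.25 (edgeR adjusted p = 0.105) and, corrected, 1.13 ± 0.25 (edgeR adjusted p = 0.0536), and without Ad-EGFP library 1 it was 0.59 and, corrected, 0.74 (edgeR adjusted p = 0.331 and 0.239). DESeq2 gave an adjusted p of 0.419. The corrected peak passed without Ad-EGFP library 3 (edgeR adjusted p = 0.0448) and with no filter on low counts (0.0419). With the replicate number as a block it passed too (edgeR adjusted p = 0.00329), although the labels do not state that the numbers pair the libraries.

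Grk2, a kinase that desensitizes G protein-coupled receptors, had 34.5, 47.4 and 37.6 CPM with Ad-Dyrk1b and 8.21, 9.72 and 21.5 CPM with Ad-EGFP (log2 change 1.61 ± 0.39). Ehd3, an ATPase of endosomal recycling, had 41.1, 27.6 and 34.6 CPM with Ad-Dyrk1b and 3.52, 8.5 and 20.2 CPM with Ad-EGFP (1.7 ± 0.45, or 1.43 corrected, against 1.44 for Grk2). In both, Ad-EGFP library 3 was the highest control. Ffar2, a receptor for short-chain fatty acids, had 38.5, 29.8 and 27.6 CPM with Ad-Dyrk1b and 16.4, 9.72 and 6.72 CPM with Ad-EGFP. Nanos1, an RNA-binding repressor of translation, had 27.9, 38.6 and 32.2 CPM with Ad-Dyrk1b and 9.38, 17 and 9.41 CPM with Ad-EGFP. Ccn5, a secreted matricellular protein, had 35.8, 49.6 and 35.3 CPM with Ad-Dyrk1b and 15.2, 21.9 and 9.41 CPM with Ad-EGFP. These are weak peaks, with no control library above 21.9 CPM, so each rests on few reads, and edgeR's adjusted p over the 5 genes lay between 0.0966 and 0.144.

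Rassf10, a Ras association domain protein, had 38.5, 54 and 46.1 CPM with Ad-Dyrk1b and 16.4, 26.7 and 17.5 CPM with Ad-EGFP. Fam114a1 had 47.8, 50.7 and 67.6 CPM with Ad-Dyrk1b and 22.3, 26.7 and 35 CPM with Ad-EGFP. The log2 changes of these 2 were 1.19 ± 0.33 and 1.01 ± 0.3, with the groups apart. Trend correction brought stronger peaks to the front on this side. Dstyk, a dual specificity kinase, had 96.9, 120 and 83.7 CPM with Ad-Dyrk1b and 58.6, 65.6 and 49.7 CPM with Ad-EGFP, and a corrected log2 change of 0.91 ± 0.23 (edgeR adjusted p = 0.0855). Slc47a1, which exports organic cations and drugs from hepatocytes, had 75.6, 123 and 85.2 CPM with Ad-Dyrk1b and 63.3, 31.6 and 67.2 CPM with Ad-EGFP. Kat14, a subunit of a histone acetyltransferase complex, had 99.5, 78.3 and 73.7 CPM with Ad-Dyrk1b and 28.1, 49.8 and 64.5 CPM with Ad-EGFP. Slc48a1, a heme transporter, had 61, 55.1 and 63.7 CPM with Ad-Dyrk1b and 38.7, 32.8 and 21.5 CPM with Ad-EGFP. For these 3 genes the corrected log2 changes were 0.94, 0.93 and 0.99, and edgeR's adjusted p lay between 0.111 and 0.15.

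**Figure D4:**
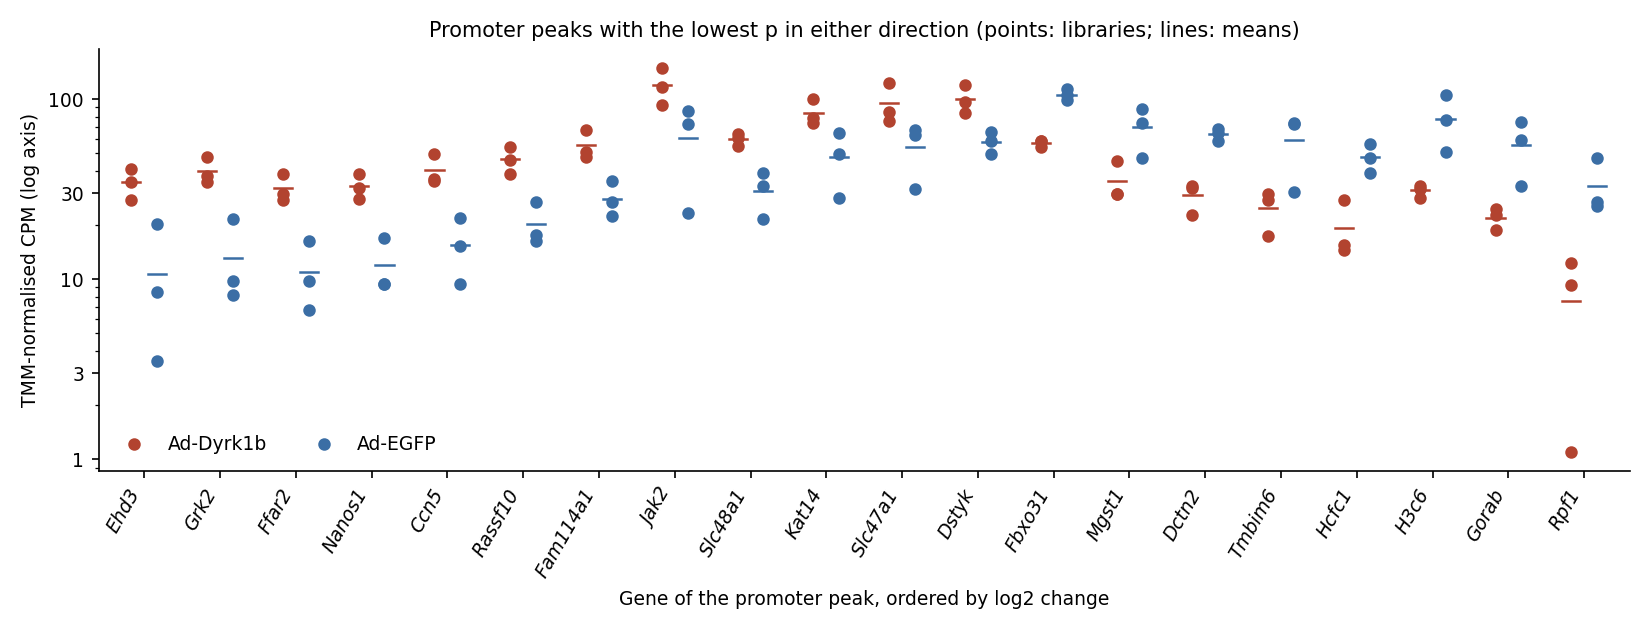
TMM-normalised CPM on a log axis is plotted for the 20 named promoter peaks with the lowest p in either direction, predicted genes left out. Ad-Dyrk1b and Ad-EGFP stand side by side, with points for libraries and short lines for means. H3c6 and Rpf1 are the peaks that were called. On this scale the groups do not overlap at any of the 20, as the rule that named them required groups without overlap.

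With predicted genes left out, the strongest promoter peaks are those of Fbrs, Abtb1, Cphx1, Zfpm1, Lrp1 and Psme2. Zfpm1, a cofactor of GATA factors also called FOG1, had 109, 201 and 180 CPM with Ad-Dyrk1b and 251, 221 and 230 CPM with Ad-EGFP. Lrp1, an endocytic receptor for lipoproteins and proteases, had 177, 137 and 185 CPM with Ad-Dyrk1b and 199, 197 and 215 CPM with Ad-EGFP. Psme2, a subunit of a proteasome activator, had 139, 201 and 159 CPM with Ad-Dyrk1b and 193, 182 and 219 CPM with Ad-EGFP. Before trend correction the groups were apart at Zfpm1 and Lrp1 and overlapped at Psme2. After it they overlapped at Zfpm1 and Lrp1 too. Fbrs had 182, 253 and 205 CPM with Ad-Dyrk1b and 291, 259 and 321 CPM with Ad-EGFP, and Abtb1 had 167, 213 and 214 CPM with Ad-Dyrk1b and 277, 253 and 269 CPM with Ad-EGFP. The log2 changes of these 5 peaks ran between -0.51 and -0.25 without trend correction and between -0.27 and -0.018 with it, and edgeR's adjusted p lay between 0.275 and 0.578. Cphx1, a homeobox gene with near-identical copies, so that its counts are uncertain, had 301, 148 and 219 CPM with Ad-Dyrk1b and 172, 243 and 251 CPM with Ad-EGFP, and a log2 change of -0.0019 ± 0.22, or 0.24 ± 0.2 corrected.

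The Wbp2 promoter, at the gene named in the series title, had 94.2, 82.7 and 86 CPM with Ad-Dyrk1b and 209, 88.7 and 133 CPM with Ad-EGFP (chromosome 11, 115977819 to 115978877, centre 527 bases upstream, spanning the start). Ad-EGFP library 2 lay within the Ad-Dyrk1b range, so the groups overlapped, and Ad-EGFP library 1 stood far above the rest. The trend-corrected log2 change was -0.53, with an edgeR adjusted p of 0.301, against -0.72 ± 0.23 and 0.175 without the correction. Without Ad-EGFP library 1 the uncorrected log2 change was -0.34 (edgeR adjusted p = 0.565). Dyrk1b itself has no promoter peak within 1 kb in the table. Among other members of its kinase family, Dyrk1a had 42.5, 45.2 and 42.2 CPM with Ad-Dyrk1b and 42.2, 38.9 and 30.9 CPM with Ad-EGFP, and Dyrk3 had 26.5, 14.3 and 23.8 CPM with Ad-Dyrk1b and 31.7, 10.9 and 39 CPM with Ad-EGFP. None of the family passed, with edgeR unadjusted p at 0.478 and 0.424 for these genes and at 0.192 for the related kinase Hipk3.

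Promoter peaks were next read by gene group. Of 38 gene lists, 31 had at least 3 tested promoter peaks, and the median log2 change was negative in 27 of them without trend correction, in 24 with it and in 13 under the RPKM-total scaling, which raises all peaks. None of the counts below includes a called peak, except that of the histone list. The hepatocyte marker peaks, 9 of 10 negative, lay on the same side as most of these lists, and their part in them was not tested. The background for an unadjusted p under 0.05 is 6.44% of all tested peaks higher and 7.72% lower.

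Of 9 promoter peaks of glycolysis and hexose uptake, 7 had negative log2 changes (61.8% of all promoter peaks did), 3 of them at an unadjusted p under 0.05, and 0 were higher at that level. After correction 6 of 9 were negative, 2 of them at that level (median -0.25, corrected -0.31, and -0.074 under the RPKM-total scaling). Slc2a2, the main glucose transporter of hepatocytes, had 19.9, 24.3 and 37.6 CPM with Ad-Dyrk1b and 41, 42.5 and 48.4 CPM with Ad-EGFP. Gckr, the regulatory protein of glucokinase, had 62.4, 62.9 and 70.6 CPM with Ad-Dyrk1b and 97.3, 85 and 86 CPM with Ad-EGFP. Gapdh, a glycolytic enzyme, had 46.4, 58.4 and 56.8 CPM with Ad-Dyrk1b and 71.5, 98.4 and 84.7 CPM with Ad-EGFP. At these 3 the groups did not overlap, and edgeR's adjusted p lay between 0.227 and 0.352. All 4 glycogen promoters had negative log2 changes (median -0.37, corrected -0.23), among them Ppp1r3c, a subunit that targets a phosphatase to glycogen, at -0.72 ± 0.37, and Gsk3a, a kinase that acts on glycogen synthase, at -0.41 ± 0.21.

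Of 4 gluconeogenesis promoters, 2 were negative (median -0.11, corrected -0.013, and 0.054 under the RPKM-total scaling). Pck1, the committed enzyme of gluconeogenesis, had 46.4, 29.8 and 39.9 CPM with Ad-Dyrk1b and 49.2, 54.7 and 55.1 CPM with Ad-EGFP (log2 change -0.46 ± 0.28), and the coactivator Ppargc1b had 41.1, 41.9 and 53 CPM with Ad-Dyrk1b and 22.3, 35.2 and 21.5 CPM with Ad-EGFP (0.79 ± 0.31). The groups were apart at both, in opposite directions, although at Pck1 they overlapped after trend correction. Without that correction, edgeR's adjusted p was 0.444 and 0.263. The 17 insulin and mTOR promoters were even, with 8 negative and a median of 0.045, or -0.0058 corrected, and 3 were lower and 0 higher at an unadjusted p under 0.05 (2 lower and 1 higher corrected). Tsc1 and Rheb, an inhibitor of mTOR and its activator, had log2 changes of -0.77 ± 0.27 and -0.88 ± 0.32 (edgeR adjusted p = 0.217 and 0.227).

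Lipid synthesis had the lowest median of the 31 lists without trend correction. Of 7 promoter peaks of lipogenesis and lipid droplets, 6 were negative and 3 of these were lower at an unadjusted p under 0.05, or 4 after correction (median -0.69, corrected -0.64, and -0.54 under the RPKM-total scaling). The summed level was 263, 296 and 276 CPM with Ad-Dyrk1b and 471, 369 and 348 CPM with Ad-EGFP, without overlap. Summed levels also lay apart in the same direction in several other lists, such as glycolysis, the spliceosome and Zfp genes, and overlapped in others. The median deviation of all promoter peaks without trend correction lay apart as well, so the separation is not particular to lipid genes. Cideb, a lipid droplet protein of hepatocytes that takes part in VLDL formation, had 39.8, 35.3 and 49.1 CPM with Ad-Dyrk1b and 84.4, 70.5 and 76.6 CPM with Ad-EGFP. Dgat1, which makes triglyceride, had 30.5, 65.1 and 70.6 CPM with Ad-Dyrk1b and 85.6, 98.4 and 108 CPM with Ad-EGFP. Acly, which supplies acetyl-CoA for fatty acid synthesis, had 55.7, 48.5 and 32.2 CPM with Ad-Dyrk1b and 108, 64.4 and 56.5 CPM with Ad-EGFP. At all 3 the groups were apart, although at Acly they overlapped after trend correction, and the log2 changes were -0.88 ± 0.25, -0.77 ± 0.24 and -0.78 ± 0.26, with edgeR's adjusted p at 0.135, 0.167 and 0.196. Without Ad-Dyrk1b library 1 the log2 change of Dgat1 was -0.5, and without Ad-EGFP library 1 that of Acly was -0.44.

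Fatty acid oxidation had the median of all promoter peaks, -0.11, and that of cholesterol synthesis was positive. For fatty acid oxidation 7 of 12 peaks were negative and 0 were past an unadjusted p of 0.05 (median -0.11, corrected -0.024, and 0.068 under the RPKM-total scaling). After correction 1 was higher and 0 lower at that level. The higher one was Acads, a short-chain acyl-CoA dehydrogenase, at 0.59 ± 0.23 corrected and 0.45 ± 0.23 uncorrected. Acads had 83.6, 109 and 79.1 CPM with Ad-Dyrk1b and 61, 72.9 and 64.5 CPM with Ad-EGFP. For cholesterol synthesis and uptake 3 of 7 were negative (median 0.13, corrected 0.22). At an unadjusted p under 0.05, 1 of the 7 was lower and 0 higher, and after correction 0 were lower and 0 higher. Of 13 plasma protein promoters 10 were negative (median -0.1, corrected -0.014, and 0.055 under the RPKM-total scaling). Apoa5, an apolipoprotein that lowers plasma triglyceride, had 27.9, 14.3 and 31.5 CPM with Ad-Dyrk1b and 65.7, 44.9 and 49.7 CPM with Ad-EGFP. The coagulation factor gene F11 had 22.6, 25.4 and 26.1 CPM with Ad-Dyrk1b and 14.1, 14.6 and 8.07 CPM with Ad-EGFP. The groups were apart at both genes, in opposite directions, with edgeR's adjusted p at 0.132 and 0.328. Of 3 liver transcription factor promoters the bile acid receptor Nr1h4 had 29.2, 16.5 and 26.1 CPM with Ad-Dyrk1b and 36.3, 41.3 and 39 CPM with Ad-EGFP, Foxa2 was at -0.53 ± 0.35 and Rxra at 0.38 ± 0.3.

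Promoters of the translation and protein turnover machinery had medians below that of all promoter peaks in several lists. Among cytosolic ribosomal proteins 26 of 29 peaks were negative, 5 were lower and 0 higher at an unadjusted p under 0.05 (median -0.3, corrected -0.17 with 22 of 29 negative, and -0.11 with 20 of 29 negative under the RPKM-total scaling). Their summed level was 1401.4, 1639.6 and 1482.7 CPM with Ad-Dyrk1b and 1988.5, 1689.7 and 1798.8 CPM with Ad-EGFP. Every Ad-Dyrk1b library thus lay below every Ad-EGFP library, with library 2 of each group closest together. Several other lists were apart in the same way, so this is not particular to ribosomal protein genes. Rps7, which encodes a small subunit protein, had 54.4, 44.1 and 32.2 CPM with Ad-Dyrk1b and 96.1, 63.2 and 61.8 CPM with Ad-EGFP, without overlap, and edgeR's adjusted p was 0.188. Ribosomal protein genes have processed copies elsewhere in the genome, so part of these counts is uncertain.

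The proteasome list had 9 of 12 negative (median -0.22, corrected -0.081), the unfolded protein response 5 of 6 (-0.38, corrected -0.25) and Mediator, the coactivator complex that links factors to RNA polymerase, 6 of 8 (-0.23, corrected -0.17). Mitochondrial ribosomal proteins had 5 of 8 negative (-0.19, corrected -0.1) and the respiratory chain 10 of 13 (-0.13, corrected -0.058, and 0.018 under the RPKM-total scaling). For the spliceosome 13 of 20 were negative and 5 were lower at an unadjusted p under 0.05 (median -0.1, corrected -0.062, and 0.071 under the RPKM-total scaling). U2af2, which recognizes the tract before the 3′ splice site, had 75.6, 81.6 and 86 CPM with Ad-Dyrk1b and 147, 99.6 and 117 CPM with Ad-EGFP. Translation factors were split, with 10 of 19 negative, and Eif4b, which helps unwind mRNA, was among the higher ones (0.52 ± 0.25) and the elongation factor Eef1g among the lower (-0.57 ± 0.23). Edem3, which trims sugars of misfolded glycoproteins, had 87.6, 104 and 86 CPM with Ad-Dyrk1b and 125, 131 and 121 CPM with Ad-EGFP.

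Histone genes had a median of -0.65, or -0.73 after correction, with 6 of 7 promoter peaks negative and H3c6 the called one. Besides H3c6 they are H2az2, H2bc3, H2bu2, H4c14, H4c4 and H4c6. H4c4 had 17.3, 15.4 and 16.1 CPM with Ad-Dyrk1b and 9.38, 40.1 and 48.4 CPM with Ad-EGFP, and H2bc3 had 29.2, 21 and 19.2 CPM with Ad-Dyrk1b and 45.7, 38.9 and 21.5 CPM with Ad-EGFP. The groups overlapped at these genes, because of Ad-EGFP library 1 at H4c4 and library 3 at H2bc3. H4c6, whose peak is the nearest to that of H3c6 in the table, had a positive log2 change of 0.42, or 0.19 corrected. For the 7 peaks the summed level was 168.5, 183 and 149.7 CPM with Ad-Dyrk1b and 250.9, 229.6 and 301.1 CPM with Ad-EGFP.

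The lists of Zfp genes and of ubiquitin enzymes had medians near that of all promoter peaks, and solute carriers lay nearer to 0. Of 65 promoter peaks of Zfp genes, zinc finger proteins that mostly bind DNA, 45 were negative, 7 were lower and 0 higher at an unadjusted p under 0.05 (median -0.14, corrected -0.08, and 0.015 under the RPKM-total scaling). Zfp444 had 33.2, 35.3 and 37.6 CPM with Ad-Dyrk1b and 69.2, 51 and 79.3 CPM with Ad-EGFP. Solute carriers were even, with 28 of 56 negative, 3 higher and 4 lower (median -0.0057, corrected 0.041, and 0.13 under the RPKM-total scaling). Ubiquitin enzymes had 16 of 27 negative, 1 higher and 5 lower at that level (median -0.11, corrected 0.013, and 0.087 under the RPKM-total scaling), cytochromes P450 8 of 12 (-0.2, corrected -0.13) and nuclear receptors 7 of 11 (-0.18, corrected -0.19). In the Hippo list 5 of 7 were negative (median -0.035, corrected -0.011, but 0.0024 with library size alone and 0.14 under the RPKM-total scaling), and Map4k4, a kinase upstream of that pathway, had 41.1, 76.1 and 32.2 CPM with Ad-Dyrk1b and 16.4, 27.9 and 26.9 CPM with Ad-EGFP (1.06 ± 0.33, edgeR adjusted p = 0.175).

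The remaining lists had 6 to 15 peaks each. At an unadjusted p under 0.05, 3 of 8 heat shock chaperone peaks were lower and 0 higher (1 lower and 0 higher after correction), 2 of 9 inflammation and acute phase peaks were lower and 0 higher, and each other list had at most 1 lower and 0 higher. Cell cycle and DREAM complex genes had 9 of 15 negative (median -0.057, corrected 0.013), the circadian clock 3 of 6 (0.015, corrected 0.12), heat shock chaperones 6 of 8 (-0.11, corrected -0.018), tRNA synthetases 6 of 10 (-0.11, corrected -0.056), inflammation and acute phase 5 of 9 (-0.19, corrected -0.068) and interferon response 6 of 10 (-0.063, corrected 0.077), and under the RPKM-total scaling the medians of these lists, except inflammation at -0.0032, were positive at 0.012 to 0.18. Ifnar1, a chain of the type I interferon receptor, had 53.1, 57.3 and 46.8 CPM with Ad-Dyrk1b and 64.5, 80.2 and 104 CPM with Ad-EGFP. E2f3, a cell cycle transcription factor, had 51.8, 78.3 and 71.4 CPM with Ad-Dyrk1b and 109, 70.5 and 130 CPM with Ad-EGFP. The groups were apart at Ifnar1 and overlapped at E2f3, and edgeR's adjusted p was 0.227 and 0.246.

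**Figure D5:**
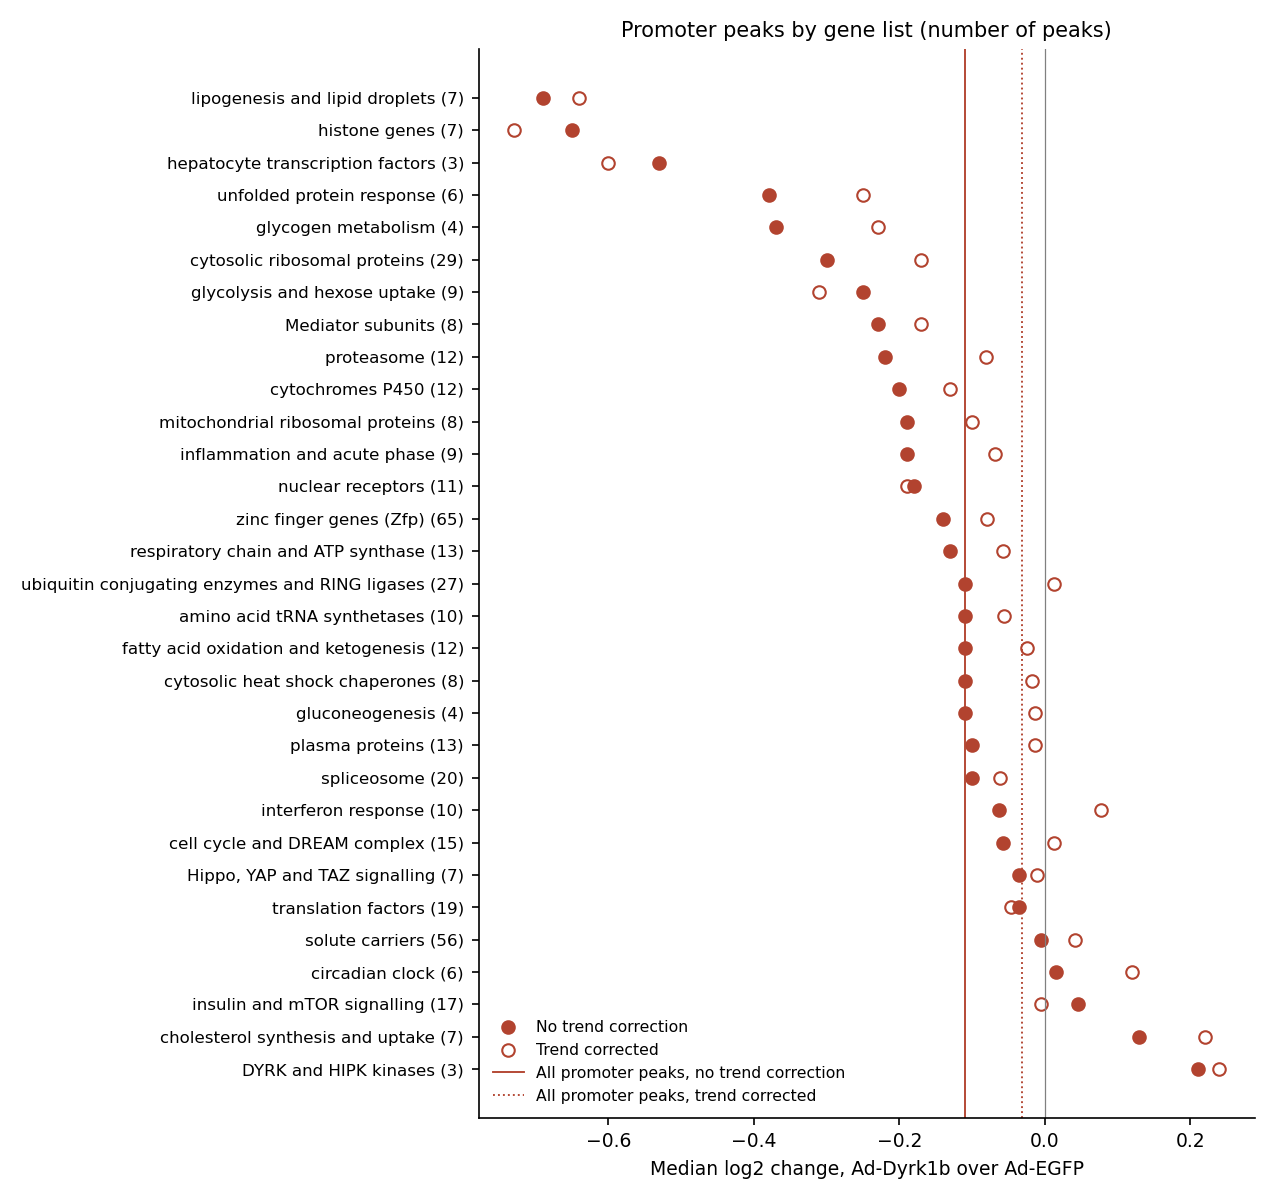
The median log2 change of Ad-Dyrk1b over Ad-EGFP is plotted for the promoter peaks of each of 31 gene lists, without (filled) and with (open) trend correction, with the number of peaks in brackets and the medians of all promoter peaks as lines at -0.11 and -0.031. Lipogenesis and histone genes lie lowest at -0.69 and -0.65, and the DYRK and HIPK kinases highest at 0.21, each over few peaks.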

How the data were processed

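ATAC-seq libraries of mouse liver, 3 Ad-Dyrk1b and 3 Ad-EGFP, were compared. The authors deposited read counts per peak and library for 22412 merged peaks, and per the file headers RPKM values, a log2 ratio, a p-value and an FDR from them. The deposited RPKM values equal the counts over peak length and a library total of 38.05 M to 48.3 M reads. Reads in peaks were 1.67% to 2.62% of these totals, and errors cover the spread of these libraries only. Peak names run to 30387, so other peaks exist, not analysed here. Per the submitters' processing notes, the tools were Bowtie2, DiffBind and ChIPseeker, with no version, and the build mm10. For peak caller, duplicate handling, read shift and the authors' test, the answer is not given in the sources used here. Of 10554 symbols, 3.38% started within 2 kb of their place in a GRCm38 table (median shift 133 kb), so coordinates are those of the file, whose build is unnamed and whose first base is unstated.

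Counts were tested with edgeR 4.0.16 (R 4.3.3; limma 3.58.1), with TMM, filterByExpr and the quasi-likelihood test over all 22051 peaks left of 22412, and Benjamini-Hochberg adjustment over these. The trend correction used per-library loess offsets against mean log2 CPM (span 0.3, prior count 2). Measures with 1 value per library had exact two-sided permutation tests. Alternatives were other scalings, no filter, DESeq2 1.42.0, limma-trend, a replicate block, leaving out each library and leaving out the strongest peak. The fits were tested on simulated counts. Named peaks are those called in either fit, in each direction the 8 (TMM) and 6 (corrected) of lowest p without overlap, the 6 strongest, those of Wbp2 and Dyrk1b, and up to 3 of lowest p per list, of which a part is printed. Predicted genes were left out of the lowest-p and strongest peaks, with 1 peak per gene. H2az2, H2bu2, H4c14 and H4c6 were named after their values were seen. The members and gene lists were chosen with earlier results of these data known. Sequences are from RefSeq.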

Additional observations from a re-analysis of the deposited data

How the results depend on the processing

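With TMM scaling the count of promoter peaks called lower was 1, and it was 0 with library size alone, with the RPKM library totals and with limma-trend, and 2 with DESeq2. Leaving out 1 library gave 0 to 1 lower calls, 0 without any library other than Ad-EGFP 2. Trend corrected, calls were 1 higher (Jak2) and 2 lower (Rpf1 and H3c6) with no filter on low counts, and 0 lower with limma-trend. Leaving out 1 library gave 0 to 1 higher (Jak2, without Ad-EGFP 3) and 0 to 3 lower (H3c6, Gorab and Tmbim6, without Ad-EGFP 2). Lower peaks at an unadjusted p under 0.05 numbered 27 with the RPKM totals and 197 to 294 without 1 library, the fewest without Ad-Dyrk1b 3. The median log2 change of promoter peaks was -0.069 with library size alone, -0.031 with trend correction and, reversed, 0.062 with the RPKM totals, and the trend with strength was reversed to 0.0695 by its correction. Cphx1 lies at 0 and changed sign to 0.03 (library size), 0.13 (RPKM totals), 0.00097 (without the strongest peak), 0.0013 (DESeq2) and 0.24 (trend corrected), with -0.26 to 0.22 without 1 library. Of 1080 values of 72 single peaks under alternatives, 1024 kept direction and side of the threshold, 36 kept direction but had no adjusted p (DESeq2), 9 lost a call, 2 gained one and 9 changed sign. Leaving out 1 library moved 21 of the 72 by over 1.5 times or changed their sign. Why these values changed was not tested. Libraries of the same number did not deviate together (correlations of -0.00979, -0.0144 and 0.0073). This cannot decide whether they were handled in pairs, which the labels do not state. A fit with the replicate number as a block called 0 higher and 1 lower with TMM, and 1 higher (Jak2) and 2 lower (Rpf1 and H3c6) with trend correction. With 3 libraries a group no permutation p can pass 0.05, and a peak of median strength rests on 34 to 59 reads a library.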
